A study of Mus musculus with 12 samples.

Results

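The genes described here encode subunits of the mitochondrial respiratory chain and of the ATP synthase, in nasal tissue of mice with and without their olfactory bulbs. Members were taken by symbol: a probe set belonged if the platform annotation gave it a single gene whose symbol begins with Ndufa, Ndufb, Ndufc, Ndufs, Ndufv, Uqcr, Cox4i, Cox5, Cox6, Cox7, Cox8 or Atp5, or is Sdha, Sdhb, Sdhc, Sdhd or Cyc1. This gave 180 probe sets for 91 genes, out of 45101 probe sets and 18193 genes with a single symbol on the array. Where a gene had several, the brightest on average over the 12 arrays stood for it. By textbook assignment 42 genes belong to complex I, 4 to complex II, 9 to complex III, 19 to complex IV and 17 to complex V. The complex I genes include 8 Ndufaf genes, whose products assemble the complex and are not part of it. Ndufa4, named as a complex I gene, was placed with its relative Ndufa4l2 in complex IV, where its product is now known to reside. Subunits encoded in mitochondrial DNA have other symbols and are not covered.

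RNA came from olfactory epithelium that had been microdissected from wild-type male C57BL/6J mice aged 6 weeks. There were 4 groups of 3 biological replicates, each hybridised to 1 Affymetrix array with a single dye. The Lip-C OBX group received clodronate liposomes (Lip-C), which are taken up by phagocytes and kill them, and lost both olfactory bulbs by bulbectomy (OBX). The Lip-C sham group received Lip-C and a bilateral sham operation. The Lip-O OBX and Lip-O sham groups had the same operations but received empty liposomes (Lip-O). In all groups 50 µl of liposomes went into the nose under isoflurane once daily over 3 days, and 200 µl went into a tail vein on the first and last of these days. The operation fell on the middle day and tissue was taken 48 h after it, so every group was anaesthetised, injected and operated on. Clodronate was not directed at the epithelium alone, since both routes were used. The sources used here do not say whether an array held RNA of 1 mouse or of several, so p-values measure the spread between these samples.

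Complex I takes electrons from NADH and complex II from succinate, both pass them to ubiquinone, complex III hands them to cytochrome c, and complex IV (cytochrome c oxidase) gives them to oxygen. Complexes I, III and IV pump protons across the inner mitochondrial membrane, and complex V, the ATP synthase, makes ATP as the protons return. Several complex IV subunits and the c subunit of complex V exist as isoforms from separate genes, some of them restricted to tissues such as heart, skeletal muscle, lung or testis. Mature olfactory sensory neurons project to the olfactory bulb, and bulbectomy cuts their axons, after which these neurons die and are replaced from progenitors.

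The deposited values are probe set signals on a linear scale, which the authors had scaled so that the mean after trimming 2% was 500 on every array. Medians over probe sets lay between 117.5 and 134.2. A gene was tested if its probe set exceeded its array's 40th percentile (a signal of 65.3 to 79.3) on at least 3 of the 12 arrays, which kept 13628 genes and 90 of the 91 members. Cox7b2, a testis isoform of complex IV, was not kept, and its signals were at most 19.1. Changes below are differences of group means of log2(signal + 16), given with the standard error from 1 limma fit over all arrays. A gene is called changed at an adjusted p (Benjamini-Hochberg over the 13628 genes, two-sided) under 0.05. The defining marker of the labelled tissue was bright on every array: Omp, the olfactory marker protein of mature neurons, had signals of 11679, 11606 and 13706 in Lip-C OBX mice, 14449, 16243 and 16024 in Lip-C sham mice, 6768, 7543 and 11517 in Lip-O OBX mice and 16164, 16197 and 18213 in Lip-O sham mice.

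Some promoter letters, which the choice by symbol did not use, were more frequent among respiratory genes than among all genes. RefSeq promoters (assembly GRCm38.p6, 250 bases before to 50 bases after the annotated start) were matched by gene identifier for 74 members. Their median GC content was 59%, against 56.3% over promoters of protein-coding genes, and the counts were not corrected for it. Exact letters were searched on both strands, and a promoter was counted once for each string however many places held it. The letters bound by nuclear respiratory factor NRF1, GCGCA and GCGC with any 1 base between them, were in 16 of the 74 promoters (21.6%), against 6.6% of 17492 promoters of protein-coding genes. CCGGAAG, the core of ETS-family sites such as those of GABP, was in 18 (24.3%), against 11.9% of all promoters. AAGATGGC, bound by YY1, was in 9 (12.2%), against 3.22%; it can overlap CCGGAAG, which ends with its first letters. GGGCGG, bound by SP1, was in 35 (47.3%), against 46.3%, and TATAAA was in 8 (10.8%), against 13.3%. Among the tissue isoforms of complex IV, 4 had a promoter entry, none of which held the NRF1, ETS or YY1 letters, while 2 held TATAAA. A match of letters is a description of these windows and not a measured binding site.

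Of the genes called lower in an OBX comparison described below, 13 had a promoter entry and 5 of these held the NRF1 letters (38.5%). Of those called higher, 5 had an entry and 1 held them (20%). The share over all members with an entry was 21.6% (16 of 74). Whether the letters and the changes go together was not tested. The promoters of Ndufa5 and Uqcrc1 are shown because both genes were lower after OBX in Lip-C mice and hold these letters, in capitals. Ndufa5 lies on the minus strand at chr6:24527477-24527776 and holds them at bases 61 to 70 of the window. Uqcrc1 lies on the plus strand at chr9:108936398-108936697 and holds them at bases 256 to 265, on the opposite strand, and 281 to 290, that is, after the annotated start. The promoters of Cox8a and Cox8b are shown because they belong to the widely used and the muscle form of 1 complex IV subunit. Capitals mark the ETS letters, on the opposite strand, in Cox8a (minus strand, chr19:7217567-7217866, bases 246 to 252 and 283 to 289) and TATAAA in Cox8b (minus strand, chr7:140900397-140900696, bases 255 to 260).
Ndufa5: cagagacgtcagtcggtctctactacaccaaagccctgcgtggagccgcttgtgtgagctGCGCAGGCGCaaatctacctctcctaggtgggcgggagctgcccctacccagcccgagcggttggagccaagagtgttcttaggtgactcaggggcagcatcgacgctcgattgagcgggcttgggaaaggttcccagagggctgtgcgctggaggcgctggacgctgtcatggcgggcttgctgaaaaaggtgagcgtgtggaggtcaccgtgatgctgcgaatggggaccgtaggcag
Uqcrc1: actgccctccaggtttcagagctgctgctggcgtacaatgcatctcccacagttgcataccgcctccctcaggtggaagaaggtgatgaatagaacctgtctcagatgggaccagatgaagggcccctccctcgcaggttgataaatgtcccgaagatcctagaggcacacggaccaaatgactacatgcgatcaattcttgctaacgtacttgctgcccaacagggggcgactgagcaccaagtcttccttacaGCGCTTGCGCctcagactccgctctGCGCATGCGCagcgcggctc
Cox8a: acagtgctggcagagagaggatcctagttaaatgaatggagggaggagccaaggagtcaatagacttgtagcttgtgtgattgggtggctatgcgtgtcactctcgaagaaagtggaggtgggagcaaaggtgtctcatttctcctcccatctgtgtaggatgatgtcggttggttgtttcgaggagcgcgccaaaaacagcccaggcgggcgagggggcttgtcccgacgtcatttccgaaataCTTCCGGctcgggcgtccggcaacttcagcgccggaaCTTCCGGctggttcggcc
Cox8b: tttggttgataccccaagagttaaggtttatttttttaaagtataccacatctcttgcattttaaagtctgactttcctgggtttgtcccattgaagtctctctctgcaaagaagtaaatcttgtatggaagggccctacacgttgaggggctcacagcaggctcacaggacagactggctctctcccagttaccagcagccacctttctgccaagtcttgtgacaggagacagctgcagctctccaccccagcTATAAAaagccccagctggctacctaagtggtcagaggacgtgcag

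In Lip-O mice, 13 respiratory genes fell and 1 rose within 48 h of bulbectomy, among them genes of complexes I, III, IV and V but not of complex II. They are 14.4% and 1.11% of the 90 members tested, where the test called 8.83% of all genes lower and 10.7% higher, 19.6% in all. Most of the changes were small. Of the 90 members tested, 71 had a negative log2 change and 19 a positive one. The median change was -0.10, beside 0.05 over all 13628 genes. By complex it was -0.12 for complex I, -0.13 for complex II, -0.08 for complex III, -0.09 for complex IV and -0.08 for complex V. Of the 13 that fell, 9 were of complex I, 1 of complex III, 2 of complex IV and 1 of complex V. Without assembly factors, tissue isoforms of complex IV and Cox7a2l, 74 structural subunits remain, of which 9 were called lower (12.2%) and 0 higher. The signals of 33 members were lower on all 3 OBX arrays than on all 3 sham arrays (36.7%, against 16.2% of all genes), and those of 4 were higher on all of them (4.44%, against 21.6%).

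**Figure D1:**
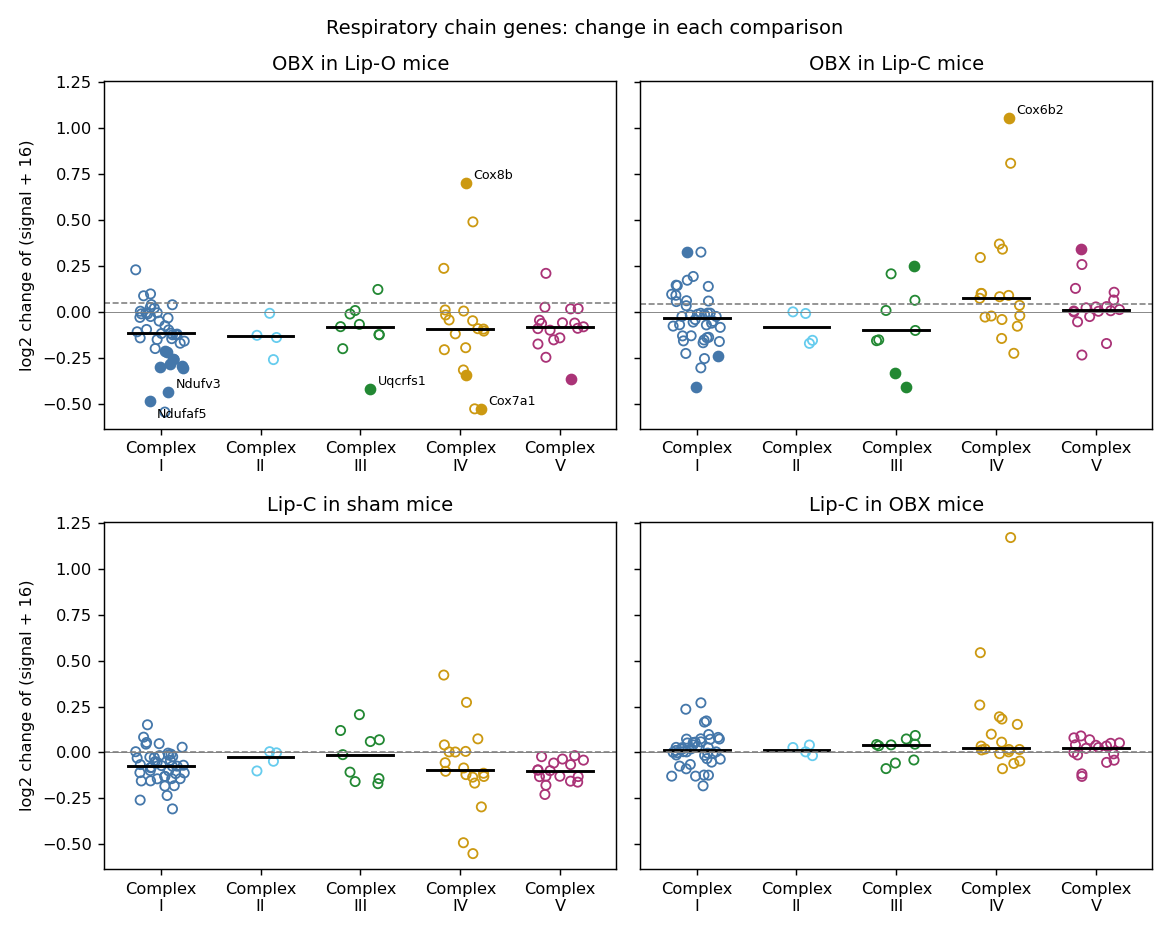
Log2 change of each respiratory gene (points; y axis, difference of log2(signal + 16)) by complex in the 4 comparisons. Filled points passed the limma test at an adjusted p under 0.05, black bars are medians of the genes of a complex, and the dashed line is the median over all 13628 genes. In Lip-O mice the medians after OBX lie between -0.13 and -0.08, under the dashed line at 0.05, and Cox8b stands above all others at 0.70.

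In complex I, genes of each module were among the 9 that fell. The N module, which binds and oxidises NADH, had 3 of 7 members called lower (42.9%). The Q module, which reduces ubiquinone, had 2 of 7 (28.6%), and the assembly factors had 3 of 8 (37.5%). The membrane arm, which pumps protons, had 1 of 20 (5%), and of all genes 8.83% were called lower. Whether the shares of the modules differ from each other or from that of all genes was not tested. Ndufs1, the largest subunit, carries iron-sulfur clusters of the N module. Its signals were 2513, 2614 and 2757 in Lip-O OBX mice, against 3234, 3404 and 3044 in Lip-O sham mice. All OBX values were below all sham values (log2 change -0.29 ± 0.07, adjusted p = 0.0143). Ndufv3, a small accessory subunit of the same module, had signals of 6784, 7019 and 8234 in Lip-O OBX mice, against 9774, 9289.5 and 10653 in Lip-O sham mice. These groups did not overlap either (log2 change -0.43 ± 0.09, adjusted p = 0.00758). Ndufv1, which holds the flavin that accepts electrons from NADH, did not pass the test, with signals of 3877, 3635 and 4144 in Lip-O OBX mice, against 4449, 4097 and 3915 in Lip-O sham mice (log2 change -0.10 ± 0.09, adjusted p = 0.488).

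Ndufa5, an accessory subunit of the Q module whose promoter is printed above, had signals of 3433, 3337 and 3248 in Lip-O OBX mice, against 4182, 4257 and 3896 in Lip-O sham mice. The groups did not overlap (log2 change -0.30 ± 0.08, adjusted p = 0.0281). Ndufaf5 and Ndufaf4, which assist assembly of complex I, fell as well. Ndufaf5 had signals of 363, 498 and 473 in Lip-O OBX mice, against 655, 557 and 667 in Lip-O sham mice (log2 change -0.49 ± 0.13, adjusted p = 0.0243). Ndufaf4 had signals of 1325, 1519 and 1437 in Lip-O OBX mice, against 1879, 1782 and 1637 in Lip-O sham mice (log2 change -0.30 ± 0.08, adjusted p = 0.0205). In neither gene did an OBX array reach a sham array. The remaining calls of complex I are named after their values were seen. They were Ndufaf7 (-0.29 ± 0.07, adjusted p = 0.0185), Ndufs7, which carries the last iron-sulfur cluster before ubiquinone (-0.26 ± 0.07, adjusted p = 0.0282), Ndufs4 (-0.22 ± 0.07, adjusted p = 0.0382) and Ndufa13 (-0.21 ± 0.07, adjusted p = 0.0498). A second probe set of Ndufaf4 passed as well, with a change of -0.57. Those of Ndufs4 disagreed, with changes between -0.68 and 0.11 in its 3 others. With replicate numbers as a block, a pairing that the labels do not state, Ndufa13 was no longer called (adjusted p = 0.0677).

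Outside complex I, 4 further genes, Uqcrfs1, Cox5b, Atp5o and Cox7a1, fell. Uqcrfs1, the Rieske iron-sulfur protein that takes electrons from ubiquinol in complex III, had signals of 3185, 3747 and 3463 in Lip-O OBX mice, against 4738, 4944 and 4242 in Lip-O sham mice. The groups did not overlap (log2 change -0.42 ± 0.10, adjusted p = 0.019). Cox5b, a zinc-binding subunit of complex IV found in all tissues, had signals of 10923, 9824 and 10352 in Lip-O OBX mice, against 12832, 12723 and 13932 in Lip-O sham mice (log2 change -0.34 ± 0.07, adjusted p = 0.00738). All 4 of its other probe sets that were tested changed in the same direction, with log2 changes between -0.35 and -0.20. Atp5o, the stalk protein (OSCP) that holds the catalytic head of the ATP synthase in place, had signals of 8651, 8283 and 8281 in Lip-O OBX mice, against 11168, 10302 and 10995 in Lip-O sham mice (log2 change -0.36 ± 0.10, adjusted p = 0.0272). In both genes every OBX value was below every sham value. Cox7a1 is described with the other isoforms below.

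With 3 arrays in a group, many of these calls were lost when 1 array was left out. The calls of Cox5b, Ndufv3 and Cox8b were kept whichever array was left out, and that of Ndufv3 was lost only in a fit to the compared groups alone (adjusted p = 0.0509). The call of Ndufs1 was lost without Lip-O OBX replicate 1 or Lip-O sham replicate 2 (adjusted p 0.0547 to 0.0555), and that of Uqcrfs1 without Lip-O OBX replicate 1, Lip-O sham replicate 1 or Lip-O sham replicate 2 (adjusted p 0.0541 to 0.0722). The call of Ndufaf4 was lost without Lip-O OBX replicate 1, Lip-O sham replicate 1 or Lip-O sham replicate 2 (adjusted p 0.0604 to 0.076), that of Ndufaf5 without Lip-O OBX replicate 1, Lip-O sham replicate 1 or Lip-O sham replicate 3 (adjusted p 0.0695 to 0.0816) and that of Ndufaf7 without Lip-O OBX replicate 1, Lip-O sham replicate 2 or Lip-O sham replicate 3 (adjusted p 0.0568 to 0.0685). The calls of Atp5o, Ndufa5 and Ndufs7 were lost without any 1 array of these groups other than Lip-O sham replicate 2 for Atp5o, Lip-O sham replicate 3 for Ndufa5 and Lip-O OBX replicate 1 for Ndufs7 (highest adjusted p 0.0785, 0.0874 and 0.0825). The calls of Cox7a1, Ndufs4 and Ndufa13 were lost in 8, 9 and 11 of the 12 fits that leave out 1 array (highest adjusted p 0.145, 0.129 and 0.149). These include arrays of the Lip-C groups, which enter the estimate of the spread. Cox7a1 was kept without Lip-O OBX replicate 2, Lip-C OBX replicate 3 and Lip-C sham replicates 1 and 3, Ndufs4 without Lip-O OBX replicate 3 and Lip-C OBX replicates 1 and 3, and Ndufa13 without Lip-C OBX replicate 2. In a fit to the 6 arrays of this comparison alone, 4 members were called, Atp5o, Cox5b, Cox8b and Uqcrfs1. Without Lip-O OBX replicate 1, 4 members were called in all. No gene called changed sign in any alternative.

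Of the core members of the complexes chosen for their role, Sdha, Sdhb, Uqcrc2, Cyc1, Cox4i1, Cox5a, Atp5a1, Atp5b and Ndufa10 did not pass the test. Sdha, the flavoprotein of succinate dehydrogenase, had mean signals of 6588 ± 261 in Lip-O OBX mice and 6628 ± 329.6 in Lip-O sham mice (SD, n = 3 each), a log2 change of -0.01 ± 0.07. Its iron-sulfur partner Sdhb had a log2 change of -0.14 ± 0.07 (adjusted p = 0.192). In complex III, the core protein Uqcrc2 had a log2 change of -0.20 ± 0.07 (adjusted p = 0.0667) and cytochrome c1, Cyc1, of -0.12 ± 0.06 (adjusted p = 0.205). The complex IV subunits Cox4i1 and Cox5a had log2 changes of -0.04 ± 0.07 and -0.12 ± 0.09. The catalytic head subunits of the ATP synthase, Atp5a1 (alpha) and Atp5b (beta), had log2 changes of -0.06 ± 0.07 and -0.18 ± 0.07, and Ndufa10 of the complex I membrane arm of -0.01 ± 0.09. With a prior variance that follows intensity, Uqcrc2 and Atp5b were called (adjusted p = 0.0303 and 0.046).

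**Figure D2:**
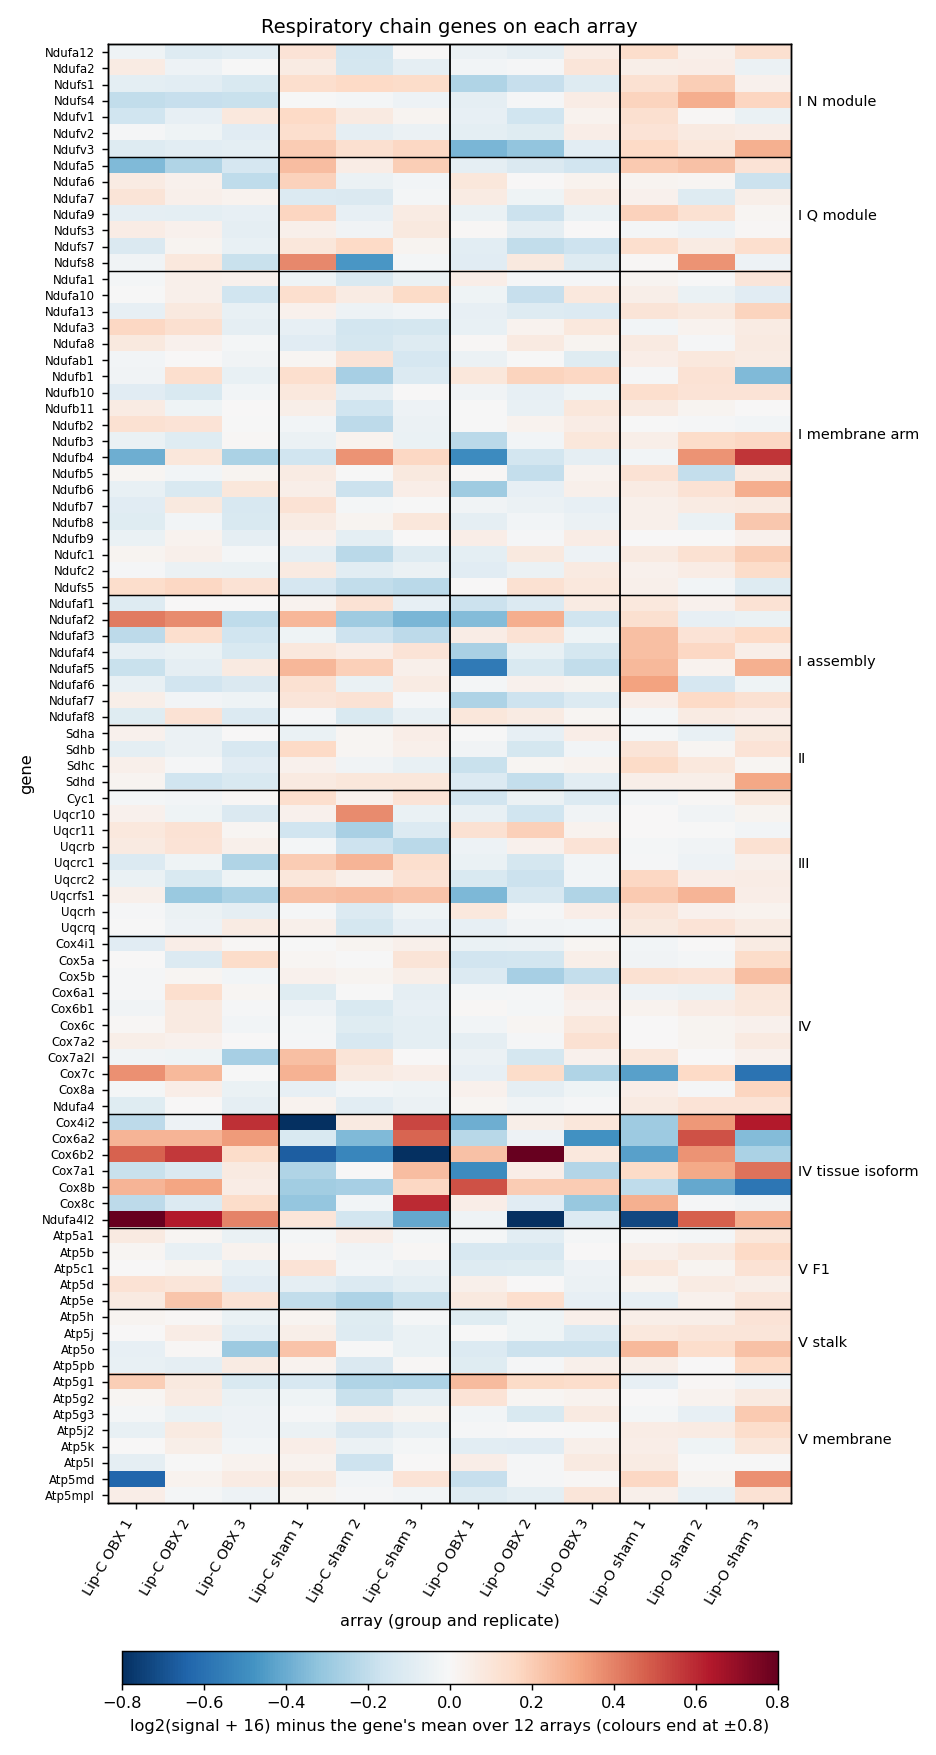
Level of each respiratory gene (rows, grouped by complex and module) on each of the 12 arrays (columns), as log2(signal + 16) minus the gene's mean over the arrays. Red is above and blue below the gene's mean, and colours end at ±0.8 (log2). Most rows are pale, blue prevails in complex I on the Lip-O OBX arrays and red on the Lip-O sham arrays, and the strongest colours are in the tissue isoforms of complex IV.

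The largest changes called in either OBX comparison, those of Cox6b2, Cox8b and Cox7a1, were of tissue isoforms of complex IV. Cox8b, the form of subunit 8 found in heart and skeletal muscle of the mouse, had signals of 6056, 4884 and 4891 in Lip-O OBX mice, against 3695, 3192 and 2839 in Lip-O sham mice. All OBX values exceeded all sham values (log2 change 0.70 ± 0.15, adjusted p = 0.0101), and the call held in each alternative analysis tried. Its widely used counterpart Cox8a had mean signals of 6587 ± 252 in Lip-O OBX mice and 7038 ± 469 in Lip-O sham mice (SD, n = 3 each), and did not pass the test (log2 change -0.09 ± 0.07, adjusted p = 0.388). Cox7a1, the form of subunit 7a in the same muscles, went the other way, with signals of 151, 229 and 185 in Lip-O OBX mice, against 247, 276 and 304 in Lip-O sham mice (log2 change -0.53 ± 0.16, adjusted p = 0.041). No OBX value reached the sham values. Its counterpart Cox7a2 had a log2 change of -0.02 ± 0.07 and the related Cox7a2l of -0.09 ± 0.09. Cox6b2, a testis form of subunit 6b, had signals of 296, 451 and 265 in Lip-O OBX mice, against 180.4, 324 and 206 in Lip-O sham mice. These overlapped (log2 change 0.49 ± 0.23, adjusted p = 0.161), although with replicate numbers as a block the gene was called (adjusted p = 0.0369). Differences between an isoform and its counterpart were not tested.

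Since Cox8b and Cox7a1 are muscle forms, markers of skeletal muscle were set beside them. Of 20 such markers 9 were bright enough to be tested, and none was called in Lip-O mice after OBX. Ckm had mean signals of 63.5, 49.2, 44.0 and 56.1 in the Lip-C OBX, Lip-C sham, Lip-O OBX and Lip-O sham groups, and Acta1 had 105, 123, 92.1 and 84.9, so Ckm was under the 40th percentile of 65.3 to 79.3 and Acta1 little above it. The summed signal of the 9 genes ran from 1799 to 2539.7 in Lip-C OBX mice, 991 to 1404 in Lip-C sham mice, 1249.7 to 1948 in Lip-O OBX mice and 1352 to 1668 in Lip-O sham mice. Most of it was Eno3, the muscle enolase, with group means of 1533, 678, 1062 and 892 in the same order. Of 10 adipocyte markers 2 were tested, and Ucp1, which defines brown fat, was not among them. Cidea, a lipid droplet protein, was called lower after OBX in Lip-O mice (log2 change -0.76 ± 0.24, adjusted p = 0.0493), a call that 14 of 23 alternative fits (11 with another setting, 12 without 1 array) lost. After OBX in Lip-C mice Cidea had a log2 change of -0.70 and was not called. A filter at the 60th percentile, a prior variance that follows intensity and the compared groups alone called it there (adjusted p = 0.0468, 0.0407 and 0.0327). The replicate block and the fit without Lip-O OBX replicate 2 did so too (adjusted p = 0.0445 and 0.0295). The other marker tested, the adipokine gene Adipoq, had signals of 87.8, 96.1 and 136 in Lip-O OBX mice, against 19.1, 90.5 and 68.2 in Lip-O sham mice and was not called (adjusted p = 0.15). The part of these cells in the Cox8b signal was not tested.

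The other isoform genes had changes that did not pass the test in Lip-O mice. Cox6a1, the widely used form of subunit 6a, had a log2 change of 0.01 ± 0.07 and Cox6b1 of -0.05 ± 0.06. The heart and muscle form Cox6a2 was dim, with signals between 51.8 and 119 over all arrays. Cox4i2, the lung form that is induced by low oxygen, was below the 40th percentile as a mean of each group. The testis form Cox8c had a log2 change of -0.20 ± 0.21. Ndufa4 had a log2 change of -0.10 ± 0.06, and signals of its hypoxia-induced relative Ndufa4l2 were 74.0, 18.9 and 69.6 in Lip-O OBX mice, against 39.6, 112 and 96.9 in Lip-O sham mice. Atp5g1, Atp5g2 and Atp5g3 encode the same mature c subunit of the ATP synthase with different import sequences, and had log2 changes of 0.21 ± 0.09, 0.02 ± 0.07 and -0.06 ± 0.08.

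**Figure D3:**
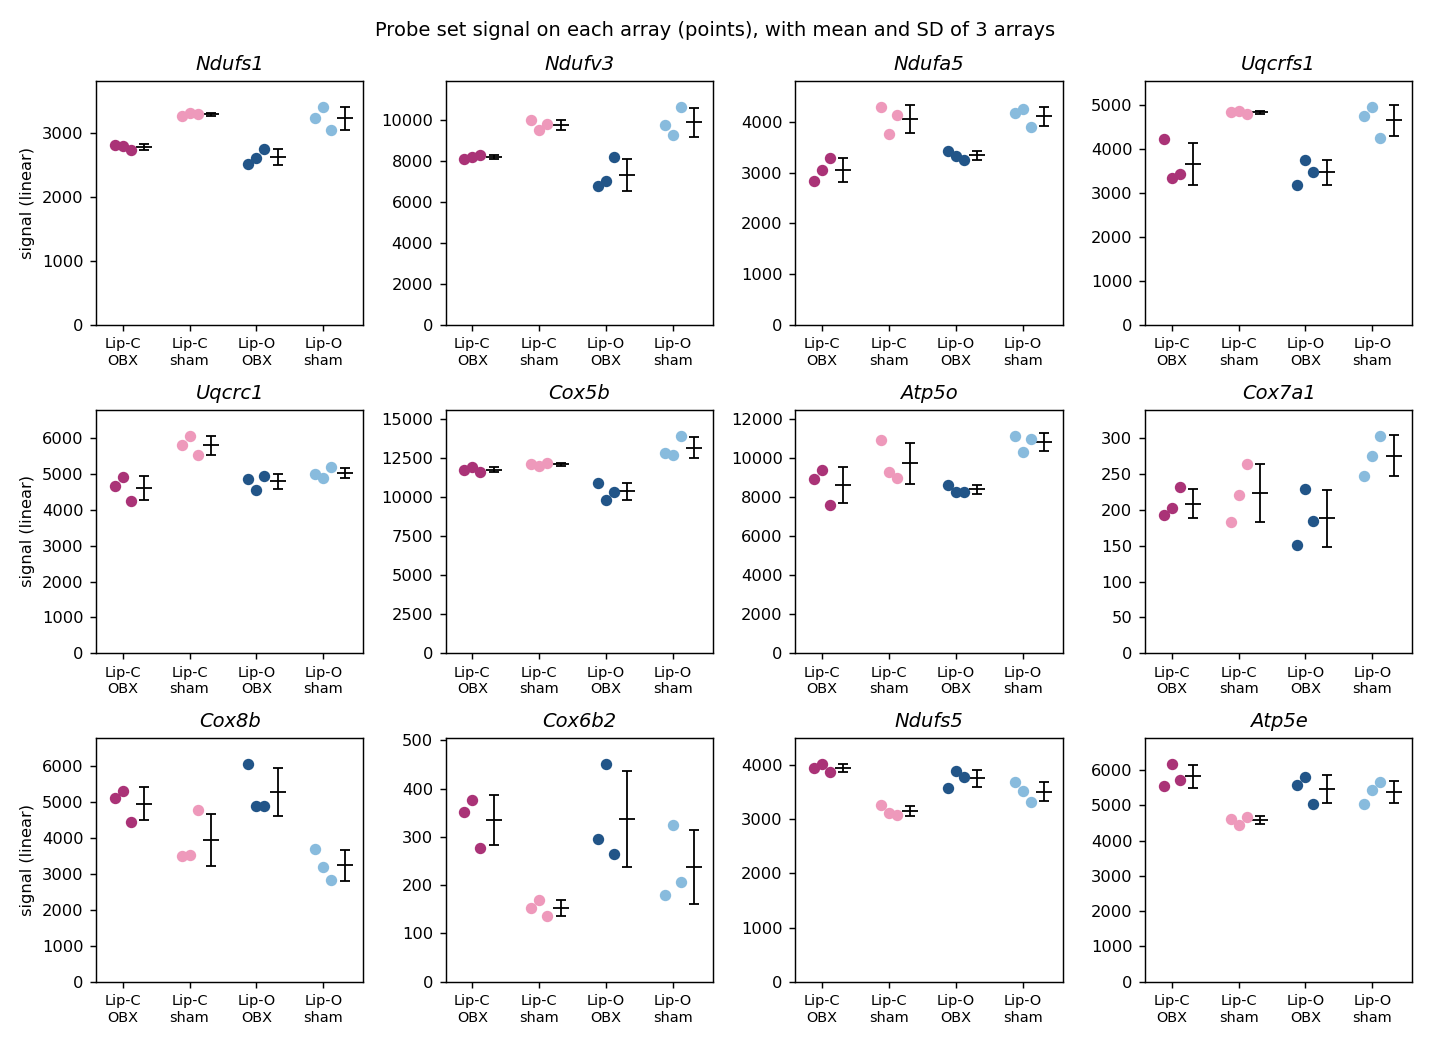
Signal of 12 respiratory genes (linear scale, starting at 0) on each array, by group; points are arrays, and the bar with whiskers is the mean ± SD of 3 arrays. Cox8b lies between 4884 and 6056 in Lip-O OBX mice, above the Lip-O sham arrays at 2839 to 3695, and Ndufa5 is lower in both OBX groups than in their sham groups.

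In Lip-C mice, 4 respiratory genes fell after the same operation and 4 rose. They are 4.44% of members in each direction, where the test called 8.83% of all genes lower and 10.3% higher, 19.1% in all. Of the 90 members, 50 had a negative change and 40 a positive one, with a median of -0.01, beside 0.04 over all genes. By complex the medians were -0.03 for complex I, -0.08 for complex II, -0.10 for complex III, 0.08 for complex IV and 0.01 for complex V. With arrays set to equal medians the median over all members was -0.10 and those of complexes IV and V were -0.01 and -0.07, so the directions of these last 2 depend on the scaling. Equal medians move every gene of a comparison by the same amount, so the distance between members and all genes stays as it was. Under that scaling 2 members were called higher and 6 lower, and 774 of all genes higher and 1654 lower, against 1403 and 1203 with the authors' scaling. The shares of members called are below those of all genes. Groups that did not overlap were found for 17 members lower (18.9%, against 17.1% of all genes) and 14 higher (15.6%, against 23%).

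The genes that fell in Lip-C mice belong to complexes I and III. Ndufa5 had signals of 2828, 3054 and 3294 in Lip-C OBX mice, against 4292, 3761 and 4143 in Lip-C sham mice (log2 change -0.41 ± 0.08, adjusted p = 0.0102), and this call held in each alternative analysis tried. Uqcrfs1 had signals of 4210.0, 3337 and 3429.8 in Lip-C OBX mice, against 4829.8, 4857 and 4797 in Lip-C sham mice (log2 change -0.41 ± 0.10, adjusted p = 0.024). Uqcrc1, a core protein of complex III, had signals of 4658, 4926 and 4253 in Lip-C OBX mice, against 5806, 6073 and 5529.6 in Lip-C sham mice (log2 change -0.33 ± 0.08, adjusted p = 0.0173). Ndufs1 had signals of 2814, 2801 and 2728 in Lip-C OBX mice, against 3258, 3319 and 3290.5 in Lip-C sham mice (log2 change -0.24 ± 0.07, adjusted p = 0.0342). In all 4 genes each OBX value lay below each sham value. Without Lip-C OBX replicate 2, 3 members were called in either direction. The call of Uqcrc1 was lost without Lip-C OBX replicate 1 or Lip-C sham replicate 2 (adjusted p 0.0551 to 0.0627), that of Uqcrfs1 without any array of these groups but Lip-C OBX replicate 1 (highest adjusted p 0.0893), and that of Ndufs1 without any of the 6 (highest adjusted p 0.0908).

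The genes that rose were a testis isoform and 3 small subunits. Cox6b2 had the largest change of any member called, with signals of 352, 377 and 277 in Lip-C OBX mice, against 152, 169 and 136 in Lip-C sham mice (log2 change 1.05 ± 0.23, adjusted p = 0.0142). Its widely used counterpart Cox6b1 had a log2 change of 0.09 ± 0.06. Atp5e, the epsilon subunit in the central stalk of the ATP synthase, had signals of 5562, 6174 and 5735 in Lip-C OBX mice, against 4615, 4455 and 4681 in Lip-C sham mice (log2 change 0.34 ± 0.08, adjusted p = 0.0175). Ndufs5, an accessory subunit of the complex I membrane arm, had signals of 3942, 4014 and 3869.5 in Lip-C OBX mice, against 3250.5, 3108 and 3078 in Lip-C sham mice (log2 change 0.32 ± 0.07, adjusted p = 0.0121). Uqcr11, a small subunit of complex III, had signals of 4749.7, 4865 and 4526 in Lip-C OBX mice, against 4007, 3737 and 4144 in Lip-C sham mice (log2 change 0.25 ± 0.07, adjusted p = 0.035). In these 4 genes no sham value reached an OBX value. The call of Cox6b2 was lost without Lip-C OBX replicate 1 or Lip-C OBX replicate 2 (adjusted p 0.0547 to 0.0556), that of Atp5e without Lip-C OBX replicate 2 or Lip-C sham replicate 2 (adjusted p 0.0603 to 0.0684), and that of Uqcr11 without any array of these groups but Lip-C OBX replicate 3, or without Lip-O sham replicate 2 (highest adjusted p 0.114). With arrays set to equal medians Ndufs5 and Uqcr11 were no longer called (adjusted p = 0.0761 and 0.17).

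The other isoforms and core members did not pass the test in Lip-C mice. Cox8b had signals of 5124, 5297 and 4435 in Lip-C OBX mice, against 3501, 3538 and 4774 in Lip-C sham mice, which overlapped (log2 change 0.34 ± 0.15, adjusted p = 0.129), and Cox7a1 had a log2 change of -0.08 ± 0.16. Signals of Ndufa4l2 were 159.9, 127 and 105 in Lip-C OBX mice, against 82.8, 67.1 and 53.4 in Lip-C sham mice, so the OBX arrays were higher without overlap, but the mean of the sham group is below the 40th percentile and no fold is given. A fit to the compared groups alone called Ndufa4l2 (adjusted p = 0.0351). Atp5g1 had a log2 change of 0.26 ± 0.09 (adjusted p = 0.0624), Sdhb of -0.16 ± 0.07, Uqcrc2 of -0.15 ± 0.07 and Ndufa10 of -0.16 ± 0.09. Other settings called Atp5g1 higher. These were a filter at the 60th percentile, quantile normalization and a prior variance that follows intensity (adjusted p = 0.0446, 0.0459 and 0.0368). Atp5g1 was also called without Lip-C OBX replicate 3 (adjusted p = 0.016). Changes of Sdha, Cyc1, Cox4i1, Cox5a, Atp5a1, Atp5b and Ndufv1 were -0.01, -0.10, -0.03, -0.02, 0.01, 0.00 and -0.13.

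Ndufs1, Uqcrfs1 and Ndufa5 were the members called lower after OBX under both liposome treatments, which compare different animals. They are 23.1% of the 13 members lower in Lip-O mice and 75% of the 4 lower in Lip-C mice. Over all genes tested, 592 were lower in both, which is 49.2% of the 1204 lower in Lip-O mice and 49.2% of the 1203 lower in Lip-C mice. Other settings changed which members were shared. Under quantile normalization Ndufv3 was called lower in Lip-C mice too (-0.30, adjusted p = 0.0188) and Ndufs1 was not (adjusted p = 0.0525). Ndufv3 was also called there with equal array medians, a filter at the 60th percentile and a prior variance that follows intensity (adjusted p = 0.0255, 0.0443 and 0.0299). The replicate block and the fit without Lip-O OBX replicate 3 called it as well (adjusted p = 0.0492 and 0.0355). Ndufs1 was also lost in Lip-C mice without the filter on dim probe sets and in the compared groups alone (adjusted p = 0.0626 and 0.0708). With probe sets averaged, Cox5b, Ndufaf4 and Ndufs4 were called lower in Lip-C mice (-0.19, -0.29 and -0.39, adjusted p = 0.0474, 0.0327 and 0.0176). Ndufs4 was then not called in Lip-O mice (adjusted p = 0.16). No member was called in opposite directions, and 71 of the 90 were called in neither comparison. Signs of the changes were negative in both comparisons for 48 members and positive in both for 17. They were negative in Lip-O mice and positive in Lip-C mice for 23, and the reverse for 2.

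Whether OBX acted differently under Lip-C was tested as the interaction, that is, the change in Lip-C mice minus the change in Lip-O mice. By limma it was called for 0 of the 90 members and 0 of the 13628 genes (0%). Other settings called up to 159 genes (without 1 array) but no member. At an unadjusted p under 0.05 there were 6 members (6.67%) and 2403 genes (17.6%). The lowest adjusted p of a member was 0.156, for Cox5b, whose signals were 11730.4, 11917 and 11606 in Lip-C OBX mice, against 12107, 11997 and 12193 in Lip-C sham mice. With the values in Lip-O mice given above, the difference of the changes was 0.30 ± 0.10. These signals are of 1 probe set. With the gene's probe sets averaged, Cox5b was called lower after OBX in Lip-C mice too (log2 change -0.19, adjusted p = 0.0474). The others, named after their values were seen, were Atp5e (0.32), Ndufc1 (0.29), Uqcrc1 (-0.26), Ndufs5 (0.23) and Ndufa4l2, which was dim in some groups. Signals of Atp5e in Lip-O mice were 5575, 5807 and 5042 in Lip-O OBX mice, against 5046, 5427 and 5657 in Lip-O sham mice, where they overlapped. Those of Ndufc1, in the complex I membrane arm, were 6192, 6274 and 6059 in Lip-C OBX mice, 5826, 5251 and 5690.3 in Lip-C sham mice, 5796, 6445 and 5945 in Lip-O OBX mice and 6420.5, 6644 and 6996 in Lip-O sham mice, highest in the last. The calls that appear under 1 liposome treatment and not under the other, Cox8b, Cox5b and Cox6b2 among them, are therefore not shown to differ between the treatments.

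The array means show where the shifts lie. The mean log2 level over the 90 members was 11.88 to 11.93 on the Lip-C OBX arrays, 11.86 to 11.93 on the Lip-C sham arrays, 11.84 to 11.90 on the Lip-O OBX arrays and 11.95 to 11.99 on the Lip-O sham arrays. The 3 Lip-O sham arrays were thus above the 9 others, whose groups overlap. Complex I gave 11.67 to 11.73 in Lip-C OBX, 11.68 to 11.80 in Lip-C sham, 11.64 to 11.72 in Lip-O OBX and 11.80 to 11.82 in Lip-O sham mice. Complex II gave 12.23 to 12.32, 12.34 to 12.37, 12.22 to 12.31 and 12.34 to 12.44 in the same order, so both OBX groups were below both sham groups. No test was made on these means. Ndufb4 of the complex I membrane arm, named after its values were seen, had the largest negative difference in Lip-O mice after OBX but did not pass, with signals of 99.4, 132 and 139 in Lip-O OBX mice, against 145, 194 and 227 in Lip-O sham mice (log2 change -0.55 ± 0.19, adjusted p = 0.0713). In all 4 comparisons together, 84 of the 90 members stayed within 0.5 on the log2 scale, called or not.

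**Figure D4:**
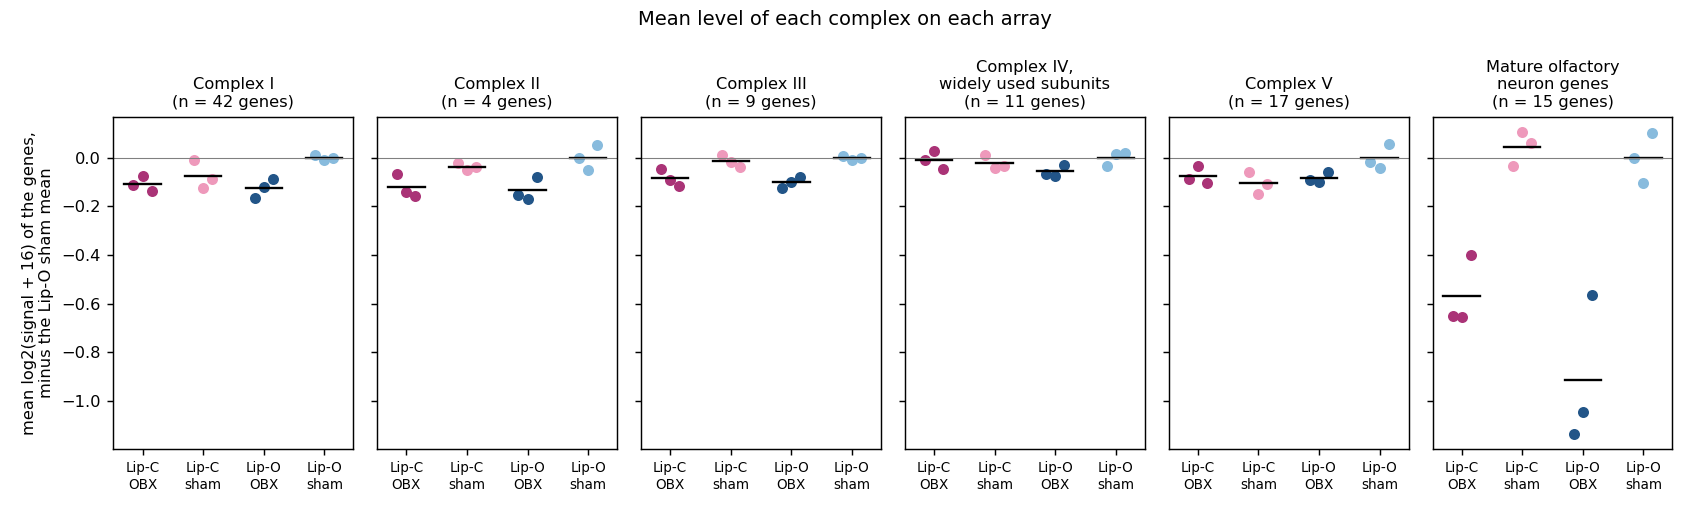
Mean log2(signal + 16) of the genes of each complex on each array (points), minus the mean of the Lip-O sham group, with group means as bars; the last panel shows mature olfactory neuron genes on the same axis. The complexes stay close to the Lip-O sham mean, while the neuron genes are lower in both OBX groups, with group means at -0.57 for Lip-C OBX and -0.91 for Lip-O OBX.

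Lip-C against Lip-O in sham mice asks what clodronate did without bulbectomy, and here no member was called (0%, against 2.08% of all genes, 1.26% higher and 0.814% lower). This comparison and that of OBX in Lip-O mice share the Lip-O sham arrays. A negative change was found for 71 of the 90 members, with a median of -0.08 beside 0.00 over all genes. By complex the medians were -0.07 for complex I, -0.02 for complex II, -0.01 for complex III, -0.09 for complex IV and -0.10 for complex V, and all 17 members of complex V were negative. Under quantile normalization the median over all members was -0.04 and that of complex III was 0.03. At an unadjusted p under 0.05 there were 11 members (12.2%, against 21.9% of genes). Signals of 30 members were lower on all 3 Lip-C arrays than on all 3 Lip-O arrays (33.3%, against 13.4% of all genes), and those of 2 were higher (2.22%, against 16.2%). The lowest adjusted p was that of Ndufs4, an accessory subunit of the N module whose loss in mice causes a fatal encephalopathy. Its signals were 3025, 2993 and 2939 in Lip-C sham mice, against 3434, 3702 and 3413 in Lip-O sham mice. The groups did not overlap (log2 change -0.23 ± 0.07, adjusted p = 0.0802). With a prior variance that follows intensity, Ndufs4 was called (adjusted p = 0.0444) as 1 of 2 members.

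Atp5a1 and Atp5b had log2 changes of -0.02 ± 0.07 and -0.09 ± 0.07, Cox4i1 of 0.00 ± 0.07 and Cox5a of 0.00 ± 0.09. Sdha had a log2 change of 0.00 ± 0.07, Sdhb of 0.00 ± 0.07, Cyc1 of 0.07 ± 0.06 and Uqcrc2 of -0.01 ± 0.07. The isoforms had larger differences with larger errors. Cox6b2 had a log2 change of -0.55 ± 0.23, Cox8b of 0.27 ± 0.15 and Cox7a1 of -0.30 ± 0.16, with adjusted p of 0.195, 0.319 and 0.31.

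Lip-C against Lip-O in OBX mice asks what clodronate changed once the bulbs were gone. No member was called (0%, against 0.345% of all genes, 0.125% higher and 0.22% lower), and 4 had an unadjusted p under 0.05 (4.44%, against 12.7% of genes). Positive changes were found for 59 members and negative ones for 31, with a median of 0.02 beside 0.00. That direction depends on the scaling, since the median was -0.03 with arrays set to equal medians. By complex the medians were 0.02 for complex I, 0.02 for complex II, 0.04 for complex III, 0.03 for complex IV and 0.03 for complex V. Groups that did not overlap were found for 5 members higher (5.56%, against 8.21% of all genes) and 3 lower (3.33%, against 7.81%). Ndufa4l2 had the lowest adjusted p, 0.241, with signals of 159.9, 127 and 105 in Lip-C OBX mice, against 74.0, 18.9 and 69.6 in Lip-O OBX mice. Those groups did not overlap, and the mean of the Lip-O OBX group was under the 40th percentile. Cox8b had a log2 change of -0.09 ± 0.15, Cox6b2 of 0.02 ± 0.23, Cox7a1 of 0.15 ± 0.16 and Cox5b of 0.18 ± 0.07 (adjusted p = 0.291). Among the core members, Ndufs1 had a log2 change of 0.08 ± 0.07, Sdha of 0.00 ± 0.07, Uqcrfs1 of 0.07 ± 0.10, Cox4i1 of 0.02 ± 0.07 and Atp5b of 0.08 ± 0.07.

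Genes that feed, build and regulate the chain were described by lists of textbook members. After OBX the median log2 change in Lip-O mice was -0.09 for the tricarboxylic acid cycle, -0.06 for other assembly factors, -0.03 for biogenesis regulators, -0.05 for protein import, -0.05 for mitochondrial ribosomal proteins and -0.19 for glycolysis, beside 0.05 over all genes. In Lip-C mice it was -0.11 for the tricarboxylic acid cycle, -0.01 for other assembly factors, -0.04 for biogenesis regulators, 0.01 for protein import, 0.06 for mitochondrial ribosomal proteins and 0.03 for glycolysis, beside 0.04. The counts called in each list stand beside 8.83% of all genes lower and 10.7% higher after OBX in Lip-O mice, and 8.83% lower and 10.3% higher in Lip-C mice. How often each call held is given out of 23 alternatives, 12 of which leave out 1 array. Of 16 tricarboxylic acid cycle genes tested, OBX in Lip-O mice called 1 higher and 3 lower (6.25% and 18.8%), and OBX in Lip-C mice none. Idh3a and Idh3b (the second named after its values were seen), subunits of the NAD-linked isocitrate dehydrogenase, fell by 0.40 and 0.26 on the log2 scale (adjusted p = 0.00935 and 0.0224), and Pdhb of pyruvate dehydrogenase fell by 0.29 (adjusted p = 0.0193). Suclg2, the GTP-forming succinate-CoA ligase subunit, rose by 0.46 (adjusted p = 0.0129). Citrate synthase, Cs, had a log2 change of -0.13 ± 0.07 and did not pass. Of 11 genes for electron carriers and nucleotide transport, 1 rose, Etfdh (0.26, adjusted p = 0.0493), and 1 fell, the mitochondrial creatine kinase Ckmt1 (-0.49, adjusted p = 0.00957), in Lip-O mice, and none in Lip-C mice. Cytochrome c, Cycs, had changes of -0.20 ± 0.12 in Lip-O mice and 0.08 ± 0.12 in Lip-C mice. With the gene's probe sets averaged, Cycs was called lower in Lip-O mice (log2 change -0.33, adjusted p = 0.0289). The calls of Suclg2 and Ckmt1 held in all 23 alternatives, while 1 lost that of Idh3a, 5 that of Pdhb and 14 that of Etfdh. Other settings called Pdhb lower in Lip-C mice too. These were quantile normalization, equal array medians, a prior variance that follows intensity and averaged probe sets (adjusted p = 0.0334, 0.0353, 0.0389 and 0.00833). Ckmt1 was called lower in Lip-C mice with equal array medians and without Lip-O OBX replicate 1 (adjusted p = 0.0418 and 0.0385). Etfdh was called higher there without Lip-C OBX replicate 3 (adjusted p = 0.0452).

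Among regulators of mitochondrial biogenesis the coactivators Ppargc1a (PGC-1 alpha) and Ppargc1b fell after OBX under both treatments. Ppargc1a had signals of 400.0, 487 and 602 in Lip-O OBX mice, against 789.8, 778 and 894 in Lip-O sham mice (log2 change -0.72 ± 0.19, adjusted p = 0.0222). In Lip-C mice its signals were 703, 529.9 and 797 in Lip-C OBX mice, against 928, 974 and 1305 in Lip-C sham mice (log2 change -0.65 ± 0.19, adjusted p = 0.0357). Ppargc1b had a log2 change of -0.40 ± 0.09 in Lip-O mice (adjusted p = 0.0116) and of -0.63 ± 0.09 in Lip-C mice (adjusted p = 0.0047). Esrrg, a nuclear receptor that these coactivators serve, and the related coactivator Pprc1, named after its values were seen, rose in Lip-O mice, by 0.48 and 0.37 (adjusted p = 0.0277 and 0.0303). Polg, the mitochondrial DNA polymerase, rose in Lip-C mice by 0.26 (adjusted p = 0.0348). Nrf1 itself, whose letters were counted in the promoters above, had a log2 change of -0.30 ± 0.15 in Lip-O mice and -0.32 ± 0.15 in Lip-C mice, and Tfam, which packs and transcribes mitochondrial DNA, of 0.05 ± 0.08 and -0.11 ± 0.08; neither passed. In all, 2 of 16 regulators rose and 2 fell in Lip-O mice (12.5% each), and 1 rose (6.25%) and 2 fell (12.5%) in Lip-C mice. Both calls of Ppargc1b held in all 23 alternatives. The Ppargc1a calls were lost in 3 in Lip-O mice and 6 in Lip-C mice, that of Esrrg in 5 and that of Polg in 10.

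Assembly factors outside the Ndufaf group were called in both directions. Of 34 tested, 3 rose and 3 fell in Lip-O mice (17.6% in all, against 19.6% of all genes). In Lip-C mice 4 rose and 3 fell (20.6%, against 19.1%). Bcs1l, which inserts the Rieske protein Uqcrfs1 into complex III, had signals of 319, 347 and 360.3 in Lip-O OBX mice, against 198, 234 and 166 in Lip-O sham mice (log2 change 0.75 ± 0.14, adjusted p = 0.00655). It rose in Lip-C mice too, by 0.67 (adjusted p = 0.0132), while Uqcrfs1 fell in both. Ttc19, another complex III factor, rose by 0.53 after OBX in Lip-O mice (adjusted p = 0.0244) and was higher in Lip-C sham than in Lip-O sham mice by 0.69 (adjusted p = 0.0392). With the mean of the gene's probe sets both calls were lost, at changes of 0.17 and 0.20 (adjusted p = 0.262 and 0.266), and in all 6 and 12 of the 23 alternatives lost them. Timmdc1, for complex I, fell in Lip-O mice by 0.53 (adjusted p = 0.0294). Sco2, which delivers copper to complex IV, fell by 0.41 under Lip-O and 0.45 under Lip-C (adjusted p = 0.0434 and 0.0322). In Lip-O mice Sco2 was not called with replicate numbers as a block (adjusted p = 0.0626). There 14 alternatives lost its call, against 6 in Lip-C mice. Sdhaf1, for complex II, fell in Lip-C mice by 0.44 (adjusted p = 0.0143). The Bcs1l call held in all alternatives in Lip-O mice and was lost in 1 in Lip-C mice, without Lip-C OBX replicate 2. The call of Timmdc1 was lost in 4, and that of Sdhaf1 in 1, without Lip-C OBX replicate 1.

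Mitochondrial protein import genes had 2 of 19 lower in Lip-O mice (10.5%), Timm17a (-0.35, adjusted p = 0.00732) and the presequence protease subunit Pmpcb (-0.24, adjusted p = 0.0428), and Timm17a was lower in Lip-C mice as well (-0.29, adjusted p = 0.0199; 5.26% of the list). The Timm17a call held in all 23 alternatives in Lip-O mice and was lost in 4 in Lip-C mice. The Pmpcb call was lost in 14, among them the replicate block (adjusted p = 0.0583). Of 76 mitochondrial ribosomal protein genes, 6 were lower (7.89%, against 8.83% of all genes) and 0 higher in Lip-O mice after OBX. In Lip-C mice 1 was lower (1.32%, against 8.83%) and 6 were higher (7.89%, against 10.3%). Mrpl32, Mrps31 and Mrpl41 had the largest falls in Lip-O mice (-0.33, -0.32 and -0.27), and Mrps6, Mrps25 and Mrpl13 had the largest rises in Lip-C mice (0.41, 0.37 and 0.35). With the mean of the gene's probe sets Mrpl13 had a change of 0.11 (adjusted p = 0.379). Alternatives lost the calls of Mrpl32, Mrps31 and Mrpl41 in 4, 5 and 6 cases and those of Mrps6, Mrps25 and Mrpl13 in 6, 13 and 7.

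Glycolytic genes were set beside the chain. Ldha, which turns pyruvate into lactate, had signals of 4265, 4577 and 4406 in Lip-O OBX mice, against 3593, 3567 and 3565 in Lip-O sham mice (log2 change 0.30 ± 0.10, adjusted p = 0.0493). In Lip-C mice its signals were 5814, 5262 and 4634 in Lip-C OBX mice, against 3777, 3521 and 3127 in Lip-C sham mice (log2 change 0.59 ± 0.10, adjusted p = 0.00552). Ldhb, the other lactate dehydrogenase subunit, named after its values were seen, fell in both (log2 changes -0.26 and -0.45). Pgam1 fell in Lip-O mice by 0.58 and in Lip-C mice by 0.39, and Pkm, pyruvate kinase, by 0.28 and 0.25. In Lip-C mice the enolase genes went apart, with Eno3 rising by 1.16 and the neuronal form Eno2 falling by 0.66 (adjusted p = 0.0178 and 0.0101). Of 15 glycolytic genes tested, 1 rose (6.67%) and 3 fell (20%) in Lip-O mice, and 3 rose (20%) and 6 fell (40%) in Lip-C mice. The calls of Pgam1 in Lip-O mice and of Ldha and Eno2 in Lip-C mice held in all 23 alternatives. Lost in some were Ldha in Lip-O mice (11), Pgam1 in Lip-C mice (4), Pkm (7 in Lip-O mice, 11 in Lip-C mice) and Eno3 in Lip-C mice (2).

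**Figure D5:**
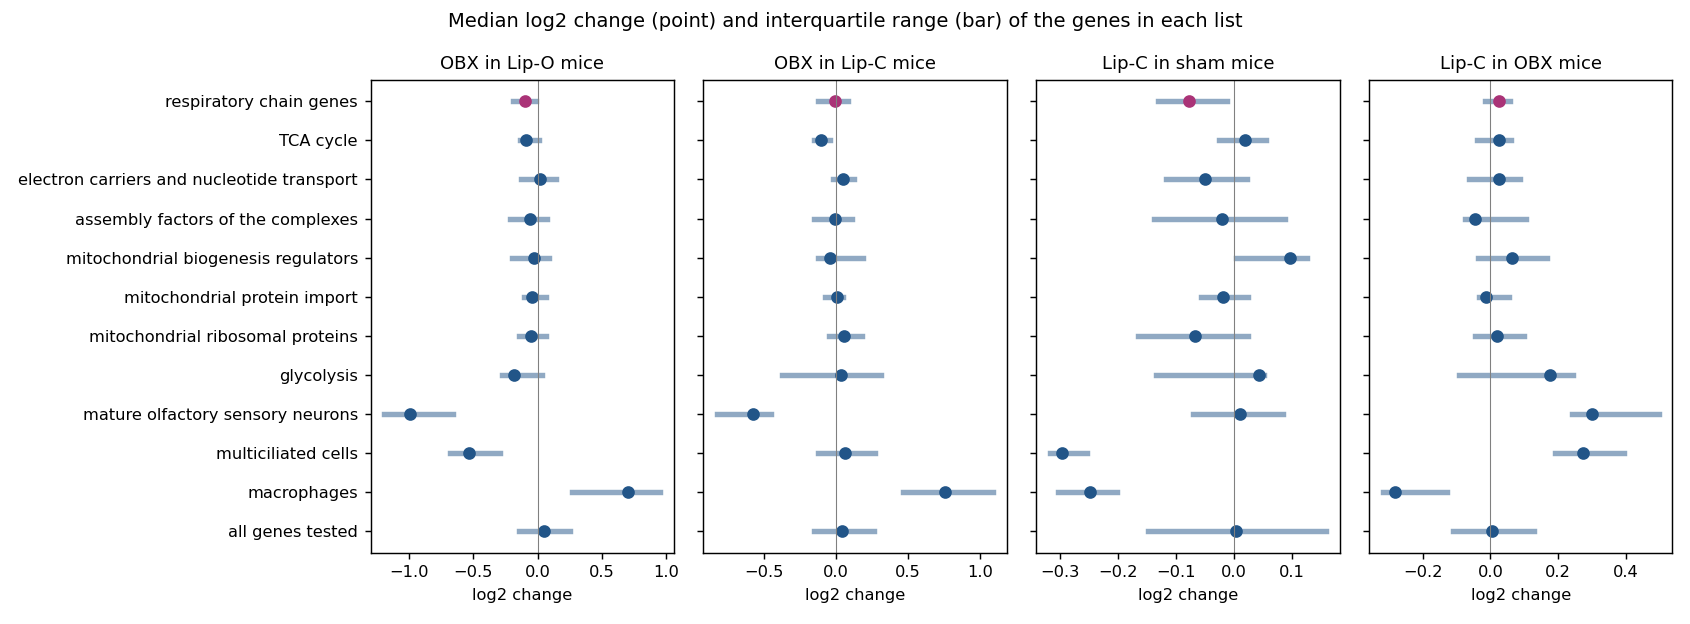
Median log2 change (points) and interquartile range (bars) of each gene list and of all genes tested, in the 4 comparisons; the horizontal axes differ in range. After OBX the lists of mitochondrial genes stay near 0, with respiratory genes at -0.10 in Lip-O mice, while mature neuron genes are at -0.99 and macrophage genes at 0.70.

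Markers of several cell types changed with the operation. Of 15 mature olfactory neuron markers tested, 13 fell after OBX in Lip-O mice and 10 in Lip-C mice, with medians of -0.99 and -0.57. Their summed signal was 81583 to 98825 in Lip-C OBX mice, 123678 to 130353 in Lip-C sham mice, 58546 to 91241 in Lip-O OBX mice and 116134 to 132714 in Lip-O sham mice. Omp had a log2 change of -1.01 ± 0.17 in Lip-O mice (adjusted p = 0.00397) and of -0.34 ± 0.17 in Lip-C mice (adjusted p = 0.176). The channel gene Cnga2 had log2 changes of -0.72 ± 0.16 and -0.57 ± 0.16 (adjusted p = 0.0113 and 0.0309). In whole tissue, fewer cells of a type and less RNA per cell cannot be told apart. The part of neuron markers in the lower respiratory signals was not tested.

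Markers of other cell types changed as well, and their part in the respiratory signals was not tested. Of 14 markers of multiciliated cells, whose beating cilia use much ATP, 10 fell after OBX in Lip-O mice, while 2 rose and none fell in Lip-C mice. Their summed signal was 26736 to 29425 in Lip-C OBX, 25739 to 28063 in Lip-C sham, 21366 to 24329 in Lip-O OBX and 31750.0 to 33069 in Lip-O sham mice. Of 13 macrophage markers, 6 rose after OBX in Lip-O mice and 8 in Lip-C mice, and their summed signal was 7325 to 9824, 4365 to 5075, 8046 to 13427 and 5572 to 7429.7 in the same order of groups. Cd68 had a log2 change of 1.16 ± 0.25 after OBX in Lip-O mice and of 1.46 ± 0.25 in Lip-C mice (adjusted p = 0.0116 and 0.00689). Between Lip-C sham and Lip-O sham mice, in which no respiratory gene was called, all 14 multiciliated markers were negative (median -0.30, none called) and Cd68 had a log2 change of -0.24 ± 0.25 (adjusted p = 0.619). Of 11 sustentacular (supporting) cell markers, 3 rose after OBX in Lip-O mice and 2 in Lip-C mice.

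Other markers were called between Lip-C sham and Lip-O sham mice, all of them lower with Lip-C, where 0.814% of all genes were called lower. Of the 13 macrophage markers these were 2, Csf1r, the receptor of a macrophage growth factor, and Aif1 (log2 changes -0.83 ± 0.18 and -0.90 ± 0.20, adjusted p = 0.0427 and 0.0471), and the median of the list was -0.25. Of 8 markers of osteoclasts, the phagocytes that resorb bone, 3 were lower, the cathepsin Ctsk, the acid phosphatase Acp5 and the protease Mmp9, and the median was -0.96. Ctsk had signals of 752, 1057 and 847 in Lip-C sham mice, against 4212, 5089 and 4516 in Lip-O sham mice (log2 change -2.37 ± 0.37, adjusted p = 0.0216), and the groups did not overlap. Acp5 and Mmp9 had log2 changes of -3.06 ± 0.54 and -1.61 ± 0.31 (adjusted p = 0.0285 and 0.0337). The summed signal of the osteoclast list was 6029 to 11462 in Lip-C OBX, 5175 to 5492 in Lip-C sham, 7749 to 13264 in Lip-O OBX and 11600.4 to 13558 in Lip-O sham mice. Of the sustentacular markers Aldh1a7 and Sox2 were lower (log2 changes -0.64 ± 0.08 and -0.50 ± 0.10, adjusted p = 0.0127 and 0.041). Aldh1a7 was also lower in Lip-C OBX than in Lip-O OBX mice (-0.54 ± 0.08, adjusted p = 0.0244), where 0.22% of genes were called lower. Of the muscle markers, Mb, the myoglobin gene, was called lower in sham mice (adjusted p = 0.0475), with signals of 49.4, 68.9 and 53.0 in Lip-C sham mice, against 84.5, 87.6 and 125 in Lip-O sham mice; the mean of the Lip-C sham group was under the 40th percentile. Of the 23 alternatives 4 lost the call of Ctsk, 7 that of Acp5, 8 that of Mmp9, 12 that of Csf1r, 15 that of Aif1, 11 that of Sox2, 17 that of Mb, and 2 and 7 those of Aldh1a7 in sham and in OBX mice.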

How the data were processed

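RNA of 12 olfactory epithelium samples was measured on 12 one-colour Affymetrix arrays, 1 per sample, with groups and replicate numbers taken from the sample titles. The deposited values are probe set intensities on a linear scale, which the authors had scaled to a trimmed mean of 500 before deposit, as the values themselves show. No label or file header names the summarisation method, and the number of arrays limits precision. Genes were named from the platform annotation: 34945 probe sets have 1 gene, 932 several and 9160 none, and 34741 matched RefSeq by gene identifier. The 64 control probe sets were left out. Values were taken as log2(signal + 16). The filter and the choice of 1 probe set per gene were as stated above. Means of the 4 groups were fitted over all arrays with limma 3.58.1 in R 4.3.3 (8 residual degrees of freedom), and each p-value is two-sided and moderated by eBayes. The 4 pairwise contrasts and the interaction were tested with Benjamini-Hochberg adjustment in each, at a threshold of 0.05. Over genes, standard errors of these changes had a median of 0.124. The fit was tested on simulated data. The series' own description names a 2 by 2 analysis of variance and pairwise comparisons, which these contrasts follow.

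The labels do not say that same-numbered replicates share a litter, batch or day. In Lip-O mice, deviations of same-numbered replicates correlated at 0.312, 0.277 and 0.134 across genes between OBX and sham. A replicate block there rests on a pairing inferred from these values. In the other comparisons at least 1 correlation was under 0.1, although Lip-C in sham mice had 0.325, 0.117 and 0.0986. Alternatives changed the pseudocount, filter, normalization between arrays, probe set rule, variance prior, samples in the fit and pairing, and left out each array in turn. Named genes were the core subunits and isoforms fixed by role, the called members with the largest rises and falls, and the 3 called genes with the largest change in each list. The members, the lists and these rules were chosen with earlier results of these data known. Promoter letters were counted in RefSeq windows with python 3.11.15.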

Additional observations from a re-analysis of the deposited data

How the results depend on the processing

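Of 22 calls of respiratory genes, those of Cox8b and Cox5b after OBX in Lip-O mice and of Ndufa5 after OBX in Lip-C mice were kept in all 11 alternatives and in all 12 fits without 1 array. None reversed. Of 188 results of named members that did not pass, 10 passed in at least 1 alternative and 79 changed sign in at least 1. Both pseudocounts and the rule without cross-hybridising probe set types kept every count within 1.5 times and every median within the spread of replicates. Where counts or medians moved, the cause was not tested.

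Without the filter on dim probe sets, 9 members were called after OBX in Lip-O mice, 1725 genes after OBX in Lip-C mice, 56 genes for Lip-C in sham mice and 1 gene for the interaction. With a filter at the 60th percentile, 549 genes were called for Lip-C in sham mice, 72 for Lip-C in OBX mice and 86 for the interaction. With an intensity trend in the prior, Lip-C in sham mice had 594 genes and 2 members called, both lower, Lip-C in OBX mice had 99 genes and the interaction 70. In fits to the compared groups alone, OBX in Lip-O mice had 1577 genes and 4 members called, OBX in Lip-C mice 5 members, Lip-C in sham mice 79 genes and Lip-C in OBX mice 2 genes.

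Medians of log2 changes over members moved with the scaling. Under quantile normalization they were -0.0428 over all members, -0.00957 for complex IV and -0.037 for complex V after OBX in Lip-C mice. For Lip-C in sham mice they were -0.0414 over all members, 0.029 for complex III and -0.0432 for complex V. With equal array medians, OBX in Lip-C mice gave -0.0951 over all members and -0.12, -0.169, -0.188, -0.00875 and -0.0743 for complexes I to V, and Lip-C in OBX mice gave -0.0309 over all members, -0.0399 for complexes I and II, -0.0138 for III and -0.0283 for V. With a gene's probe sets averaged, complex III had -0.0279 after OBX in Lip-C mice and 0.031 for Lip-C in sham mice.

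Without 1 array at a time, OBX in Lip-O mice called 1414 to 2788 genes and 4 to 13 members, the lowest of both without Lip-O OBX replicate 1, with complex III at -0.108 to -0.0427. OBX in Lip-C mice called 840 to 3030 genes, the lowest without Lip-C OBX replicate 1, and 3 to 9 members, with complex III at -0.112 to -0.0273. Lip-C in sham mice called 17 to 317 genes, the lowest without Lip-C sham replicate 3, and 0 members, with medians of -0.104 to -0.0554 over all members, -0.0615 to 0.0272 in complex II and -0.032 to 0.0245 in complex III. Lip-C in OBX mice called 7 to 77 genes, the lowest without Lip-O OBX replicate 1, and 0 members, with complex III at 0.00528 to 0.0701. The interaction called 0 to 159 genes and 0 members.

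With replicate numbers as a block, a pairing that the labels do not state, 15 members were called after OBX in Lip-O mice. Of these, 2 were higher and 13 lower. Among the named members Cox6b2 entered and Ndufa13 left the calls, as given above. These do not account for the whole difference in the count, and members that were not named were not followed. Among named genes outside the chain, Sco2 and Pmpcb left them and the macrophage marker Aif1 entered (log2 change 0.52, adjusted p = 0.0253). In the other comparisons the block called 9 members for OBX in Lip-C mice, and 0 members in the Lip-C comparisons and the interaction. Ndufv3 entered the calls in Lip-C mice, as lower (log2 change -0.25, adjusted p = 0.0492). Every count of genes stayed within 1.5 times.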
